A study of Mus musculus with 6 samples.

Results

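Cytosolic ribosomal proteins were followed in sorted mouse breast cancer cells, through the 105 array probe sets, of 45037 that were not controls, that carried the symbol of exactly 1 ribosomal protein gene. They covered 49 genes and were chosen by gene symbol alone: small-subunit and large-subunit names of the Rps and Rpl series, with Rpsa and the stalk proteins Rplp0 and Rplp2. Another 110 probe sets list a ribosomal protein gene together with other symbols, many with names of predicted genes or pseudogenes, and are given only as counts. The cells were labelled breast cancer stem cells, were grown in serum-containing medium and were sorted by CD24, a surface glycoprotein, and CD29, the integrin beta-1 chain. The 2 groups were CD24+CD29+ cells and CD24-CD29- cells, with 3 arrays each. The labels give no cell line name, strain, genotype or treatment beyond the sort, and the design calls the sets independent without saying whether animals or cultures were separate. A p-value here weighs the difference between groups only against how far arrays of a group lie apart, a spread that may be technical in part.

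A ribosome joins a small subunit, which reads the mRNA, to a large subunit, which forms the peptide bond, and each holds ribosomal RNA and many proteins. Mammalian cells make these proteins from some of their most abundant mRNAs, most of which begin with a run of pyrimidines, the 5′ terminal oligopyrimidine (TOP) tract, through which mTOR signalling controls their translation. A few ribosomal proteins have a paralog, here called a like form, that is expressed in particular tissues or states. The series' title names PI3K and mTOR signalling, and the comparison here asks how the levels of these mRNAs differed between the sorted groups.

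To show the start sites of genes on which the results turn, the 20 bases before the annotated transcription start and the 20 from it are printed for Rpl22l1, Rps27l and their partners, for the gene with the largest difference, and for Rps6, Rplp0 and Rpl7l1. Sequences are from RefSeq, build GRCm38.p6, and 43 of the 49 genes had an entry. Capitals mark the longest run of C and T on the sense strand that comes within 5 bases of the start.
Rpl22l1 (chr3:28805488-28805527, plus strand): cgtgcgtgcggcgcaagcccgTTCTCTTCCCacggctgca
Rpl22, first entry (chr4:152324416-152324455, plus strand): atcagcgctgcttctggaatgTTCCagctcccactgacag
Rpl22, another entry (chr4:152325706-152325745, plus strand): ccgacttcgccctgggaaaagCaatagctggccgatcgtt
Rps27l, first entry (chr9:66946066-66946105, plus strand): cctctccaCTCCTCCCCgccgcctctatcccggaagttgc
Rps27l, another entry (chr9:66946393-66946432, plus strand): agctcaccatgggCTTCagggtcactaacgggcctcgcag
Rps27 (chr3:90213629-90213668, minus strand): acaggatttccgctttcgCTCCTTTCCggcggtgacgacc
Rpl7l1 (chr17:46782637-46782676, minus strand): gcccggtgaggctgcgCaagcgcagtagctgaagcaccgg
Rpl27a (chr7:109519175-109519214, plus strand): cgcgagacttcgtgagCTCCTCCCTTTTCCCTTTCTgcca
Rps6 (chr4:86857348-86857387, minus strand): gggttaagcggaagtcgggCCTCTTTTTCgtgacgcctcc
Rplp0 (chr5:115559447-115559486, plus strand): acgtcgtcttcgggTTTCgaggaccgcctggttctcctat

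A run of at least 8 was found in 18 of 51 entries of the ribosomal protein genes (35.3%), against 3194 of 32851 entries of all genes (9.72%). Only the sense strand was searched, annotated starts can be off by several bases, and a run is a description of the letters, not a tested site. Among the printed genes, Rpl27a has a run of 20 bases, and Rpl22l1 and Rps6 have runs of 10. Rps27 and the first entry of Rps27l have runs of 9, and Rpl7l1 has no run longer than 1 base. The run of Rps27l begins at -12 from the annotated start and ends before that start.

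All values are log2 expression as the authors deposited them, and differences are CD24+CD29+ minus CD24-CD29-. A probe set is said to have risen or fallen when limma's p was under 0.05 after Benjamini-Hochberg adjustment across the 45037 probe sets. Arrays of a group correlated at r of at least 0.997 over probe sets, and those of different groups at r of at most 0.979. The added poly-A control RNAs, 24 probe sets, had a median of 11.40 to 11.46 in CD24+CD29+ arrays, against 12.61 to 12.67 in CD24-CD29- arrays. Scaling to them raised the median difference of all probe sets from -0.05 to 1.17, so each direction below is relative to the other probe sets on an array, and under that scaling 104 of the 105 ribosomal protein probe sets were higher and 1, of Rpl27a, lower. In bulk arrays such as these, fewer cells of a type and less RNA per cell cannot be told apart.

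Ribosomal protein mRNAs were lower in CD24+CD29+ cells more often than they were higher, by small amounts, on the deposited scale but not after scaling to the poly-A controls. Of the 105 probe sets, 46 fell (43.8%), 13 rose (12.4%) and 46 did not pass. Of all probe sets 34.8% fell, 29.2% rose and 63.9% passed in either direction, so the share that fell was above the background and the share that rose was below it. The median difference was -0.10, against -0.05 for all probe sets, or -0.05 relative to all probe sets. That relative median was -0.08 after quantile normalization, -0.09 after cyclic loess, and -0.18 when the dimmest 40% of probe sets were left out of both. The quartiles of the differences were -0.27 and 0.05. Median centring left 36 falls and 16 rises, and quantile normalization or cyclic loess gave 49 falls and 17 rises. The background moved as well. Of all probe sets 28.4% fell and 33.1% rose after median centring. These shares were 29.7% and 28.4% after quantile normalization, and 29.4% and 28.6% after cyclic loess.

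The background was not the same at every level. Most ribosomal protein probe sets were bright, with a median level at percentile 95.2 of all probe sets. Of 24 of them with a mean of 9 to 11, 15 fell and 6 rose (median -0.28), whereas of all 5882 probe sets with that mean 24.4% fell and 52.7% rose (median 0.17). Of 26 with a mean of 11 to 13, 13 fell and 2 rose (median -0.13), whereas of all 1904 at that level 32.9% fell and 42.4% rose (median 0.06). At these levels the ribosomal protein probe sets thus fell more often than they rose, while all probe sets rose more often than they fell. Of 12 with a mean of 7 to 9, 5 fell and 3 rose (median -0.04), whereas of all probe sets there 22.4% fell and 51.6% rose (median 0.19). Of 14 with a mean under 7, 5 fell and the other 9 did not pass (median -0.07), and of all probe sets there 41.2% fell and 15.8% rose (median -0.13), so the dimmest did not stand below their background.

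Sizes were small. Of the 59 that passed, 47 had a log2 difference under 0.5 in size, 9 fell by at least 0.5 and 3 rose by at least 0.5. Most called probe sets of the whole array were small too, with 19820 of 28786 under 0.5. The median size over called and uncalled probe sets was 0.15, against 0.25 for all 45037, most of which were dimmer. Compared at like level, it was 0.36 against 0.33 at a mean of 9 to 11. In the other ranges it was below that of all probe sets, such as 0.21 against 0.28 at 11 to 13 and 0.11 against 0.15 from 13. Only probe sets of Rpl27a and Rpl22l1 reached 2-fold, both lower in CD24+CD29+ cells. Of all 45037 probe sets 517 fell and 1030 rose by that much. The groups did not overlap for 74 of the 105 (70.5%), against 68.2% of all probe sets, which is near the background. The median over the 105 probe sets was 10.98, 10.93 and 10.94 in CD24+CD29+ arrays, against 11.05, 11.15 and 11.12 in CD24-CD29- arrays. The groups did not overlap, but neither did the median of all probe sets, which was 6.23, 6.24 and 6.23 in CD24+CD29+ arrays, against 6.28, 6.28 and 6.29 in CD24-CD29- arrays.

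**Figure D1:**
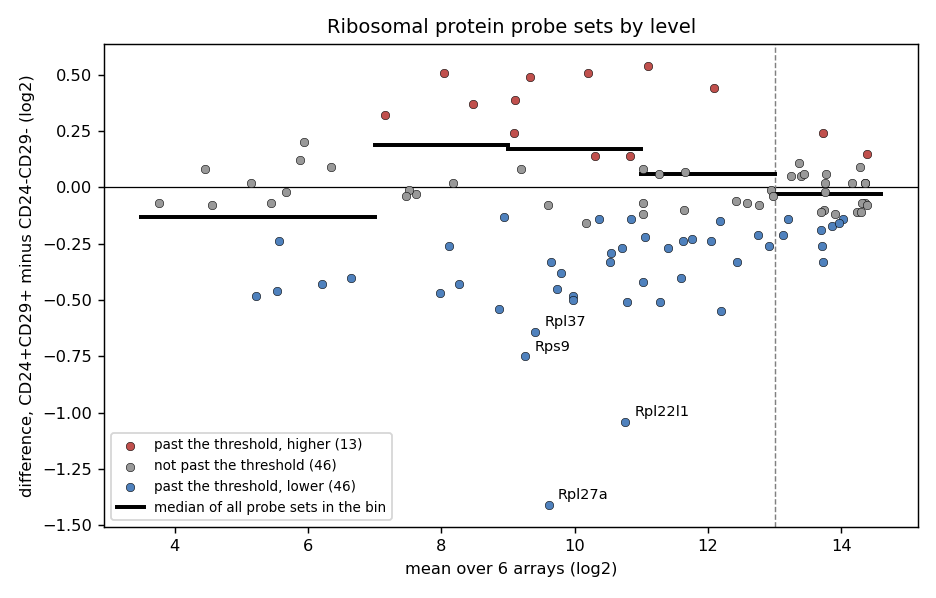
Log2 difference (CD24+CD29+ minus CD24-CD29-) against the mean over 6 arrays for the 105 ribosomal protein probe sets, coloured by the limma call; black bars give the median of all probe sets in the same range of level and the dashed line stands at 13. Most called probe sets lie below 0 on the deposited scale, the bars of all probe sets from 7 to 13 lie above it, and points right of the dashed line stay within 0.33 of 0; after scaling to the poly-A controls all but 1 point would lie above 0.

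Probe sets near the top of the intensity range were taken apart, since the brightest value of an array was 14.9 or slightly more and differences close to that can be compressed. They were defined by a mean over the 6 arrays of at least 13, which held 29 of the 105. Of these, 8 fell and 2 rose, and 19 did not pass (median -0.07). Of all 305 probe sets that bright 34.8% fell and 19.3% rose. The share of ribosomal protein probe sets that fell here, 27.6%, was below that background. No difference in this class was larger than 0.33 in size.

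Of the 76 below the limit 38 fell, 11 rose and 27 did not pass, and the median was -0.13. Above the dimmest 40% of probe sets lay 67 of them, of which 35 fell (52.2%) and 11 rose (16.4%) (median -0.14). Among all 26717 probe sets between those limits, 29.9% fell and 42.5% rose (median 0.07). The median over these 76 was 9.81, 9.75 and 9.65 in CD24+CD29+ arrays, against 10.07, 10.25 and 10.23 in CD24-CD29- arrays. For the 29 bright ones it was 13.82, 13.76 and 13.83 in CD24+CD29+ arrays, against 13.85, 13.90 and 13.89 in CD24-CD29- arrays. Both sets of medians were lower in every CD24+CD29+ array, as was the median of all probe sets. Near the top the means of these medians were 13.80 in CD24+CD29+ arrays, against 13.88 in CD24-CD29- arrays, a gap close to that of all probe sets (6.23 in CD24+CD29+ arrays, against 6.29 in CD24-CD29- arrays). Below the limit they were 9.74 in CD24+CD29+ arrays, against 10.19 in CD24-CD29- arrays. That gap is wider than the median of the 76 differences, -0.13 (quartiles -0.39 and 0.03). The probe set in the middle need not be the same in each array, so the gap is no measure of a typical fall. After quantile normalization the median was -0.21 below the limit and -0.02 near the top, and after cyclic loess it was -0.21 and 0.05, so the sign near the top depended on the normalization. Just inside the limit stood Rps10 (1434854_a_at, mean 13.12, difference -0.21) and a probe set of Rps28 (13.20, -0.14), and just outside it 2 probe sets of Rpl13a (12.98 and 12.95, -0.04 and -0.01).

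The 5 brightest probe sets show how little the top of the range moved. Rps3, whose protein lies where mRNA enters the small subunit, stood at 14.35, 14.33 and 14.34 in CD24+CD29+ arrays, against 14.42, 14.43 and 14.42 in CD24-CD29- arrays (1435151_a_at, -0.08, limma adjusted p = 0.15). Rpl6, a large-subunit protein, was at 14.47, 14.44 and 14.47 in CD24+CD29+ arrays, against 14.30, 14.32 and 14.30 in CD24-CD29- arrays. It rose by 0.15 (SE 0.05, limma adjusted p = 0.020), although the call was lost without either of 2 arrays, at an adjusted p of up to 0.066. Rps4x, an X-linked small-subunit gene, differed by 0.02 (95% interval -0.09 to 0.12), Rps28 by 0.02 (1423763_x_at, -0.09 to 0.12) and Rpl13a by -0.07 (1455485_x_at, -0.18 to 0.04), and these 3 did not pass. The intervals of these 3 allow differences of up to 0.18 in size before any compression is considered. That of Rps3 reached -0.19 and that of Rpl6 reached 0.26. With an intensity trend this probe set of Rpl13a did pass, at the same size (limma adjusted p = 2.5e-04).

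The stalk of the large subunit recruits the elongation factors. Rplp0, which forms its base and is widely used as a reference gene, stood at 13.57, 13.51 and 13.58 in CD24+CD29+ arrays, against 13.85, 13.90 and 13.89 in CD24-CD29- arrays. It fell by 0.33 (SE 0.05, limma adjusted p = 5.0e-04), a 1.25-fold difference and the largest in size of the 29 bright probe sets. Rplp2, which binds to that base, was at 13.50, 13.41 and 13.50 in CD24+CD29+ arrays, against 13.35, 13.45 and 13.44 in CD24-CD29- arrays, and these overlapped (0.06, 95% interval -0.07 to 0.19; 0.13 and past the threshold after quantile normalization). The base and its partner thus had different calls, and the difference between their differences was not tested. Rplp1 had no probe set with a single symbol.

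Of the small-subunit proteins, 22 of 53 probe sets fell (41.5%) and 5 rose (9.43%), with a median of -0.11. Of the large-subunit proteins without like forms 20 of 42 fell (47.6%) and 6 rose (14.3%), also with a median of -0.11. Of all probe sets 34.8% fell and 29.2% rose. Below the top of the range the medians were -0.12 for the small and -0.21 for the large subunit, and near the top -0.10 and -0.02, and the difference between the subunits was not tested. In the large subunit the largest fall was that of Rpl27a. It stood at 8.97, 8.82 and 8.92 in CD24+CD29+ arrays, against 10.32, 10.37 and 10.26 in CD24-CD29- arrays (1437729_at). This was a 2.67-fold lower level (log2 -1.41, SE 0.06, limma adjusted p = 5.1e-07), and the only one that remained lower after scaling to the poly-A controls (-0.19). A probe set of Rpl27a in the dimmest 40% fell as well, by 0.48.

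Rpl37, a zinc-binding protein of the large subunit, was at 9.02, 9.17 and 9.08 in CD24+CD29+ arrays, against 9.74, 9.66 and 9.80 in CD24-CD29- arrays (-0.64, SE 0.06, limma adjusted p = 3.4e-05). The groups were well apart on its single probe set. Rpl12, which lies at the foot of the stalk, rose by 0.51 (SE 0.05, limma adjusted p = 3.8e-05), with 10.49, 10.44 and 10.41 in CD24+CD29+ arrays, against 9.96, 9.95 and 9.92 in CD24-CD29- arrays. Rpl7a also rose, by 0.24, near the top of the range. Rpl11, which binds Mdm2 when ribosome assembly is disturbed, did not pass at -0.10 (95% interval -0.23 to 0.02). It did after quantile normalization at -0.14, and with an intensity trend (limma adjusted p = 0.0086). Rpl5, which acts with Rpl11, had no probe set with a single symbol.

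In the small subunit Rps14 fell by 0.55 on 1 of its 2 probe sets (1437706_x_at), with 11.90, 11.91 and 11.94 in CD24+CD29+ arrays, against 12.48, 12.46 and 12.47 in CD24-CD29- arrays. The other did not pass (-0.07, 95% interval -0.21 to 0.06). Rps25, needed in human cells and yeast for initiation at some viral internal entry sites, stood at 11.12, 11.01 and 10.93 in CD24+CD29+ arrays, against 11.60, 11.52 and 11.48 in CD24-CD29- arrays. It fell by 0.51 (SE 0.06, limma adjusted p = 1.7e-04), and the groups did not overlap. Rps26, which lies at the mRNA exit channel, rose by 0.44, with 12.36, 12.27 and 12.29 in CD24+CD29+ arrays, against 11.91, 11.88 and 11.83 in CD24-CD29- arrays (SE 0.05, limma adjusted p = 1.3e-04). Rps19, which is mutated in Diamond-Blackfan anaemia in humans, fell by 0.26.

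Rps6 is the ribosomal protein that the S6 kinases phosphorylate downstream of mTOR. Its main probe set was at 10.32, 10.33 and 10.24 in CD24+CD29+ arrays, against 10.44, 10.44 and 10.41 in CD24-CD29- arrays. It fell by 0.14 (SE 0.05, limma adjusted p = 0.040), a call lost when any 1 of the 6 arrays was left out, at an adjusted p of up to 0.15. Its other probe set fell by 0.43. Rpsa, a small-subunit protein also known as a laminin receptor, did not pass at 0.06 (95% interval -0.06 to 0.17; 0.15 and past the threshold after quantile normalization), with 13.82, 13.74 and 13.84 in CD24+CD29+ arrays, against 13.72, 13.75 and 13.76 in CD24-CD29- arrays.

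Of the 10 probe sets of like forms 4 fell, 2 rose and 4 did not pass, with a median size of difference of 0.39. Among all 45037 probe sets 34.8% fell and 29.2% rose, with a median size of 0.25, and the difference from this background was not tested. The falls were 3 probe sets of Rps27l and 1 of Rpl22l1, and the rises were 2 of Rpl7l1. Rpl22l1, a paralog of the RNA-binding large-subunit protein Rpl22, stood at 10.28, 10.24 and 10.20 in CD24+CD29+ arrays, against 11.21, 11.29 and 11.33 in CD24-CD29- arrays. It fell by 1.04 on the log2 scale (SE 0.06, 2.06-fold, limma adjusted p = 1.4e-06), but was higher by 0.18 after scaling to the poly-A controls. Rpl22 itself did not pass on any of its 3 probe sets in the main fit of all probe sets. Its brightest passed as lower in the fit with 1 probe set a gene (limma adjusted p = 0.028). It also passed with an intensity trend (limma adjusted p = 8.4e-07) and without the dimmest 40% of probe sets (limma adjusted p = 0.026). With the trend 1448398_s_at passed as higher (0.08, limma adjusted p = 0.045), and 1416603_at fell by 0.16 after quantile normalization. The brightest was at 14.19, 14.18 and 14.16 in CD24+CD29+ arrays, against 14.29, 14.29 and 14.28 in CD24-CD29- arrays (-0.11, limma adjusted p = 0.058), and the others differed by -0.07 (95% interval -0.19 to 0.04) and 0.08 (-0.04 to 0.20).

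Rps27l, a paralog of Rps27 that p53 induces, fell on all 3 of its probe sets, by 0.42, 0.45 and 0.50. The brightest was at 10.85, 10.83 and 10.77 in CD24+CD29+ arrays, against 11.21, 11.26 and 11.24 in CD24-CD29- arrays (SE 0.05, limma adjusted p = 1.3e-04). Rps27 fell by a similar amount on its only single-symbol probe set, -0.47 (SE 0.10, limma adjusted p = 0.0030), with 7.62, 7.84 and 7.78 in CD24+CD29+ arrays, against 8.44, 8.11 and 8.11 in CD24-CD29- arrays. Both partners fell here, and the difference between partners was not tested for this pair or for Rpl22l1 and Rpl22.

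Rpl7l1, a paralog of Rpl7, rose on 2 of 3 probe sets. The brightest stood at 9.64, 9.49 and 9.59 in CD24+CD29+ arrays, against 9.15, 9.06 and 9.05 in CD24-CD29- arrays (0.49, SE 0.06, limma adjusted p = 1.4e-04), the next rose by 0.37, and the dimmest did not pass (-0.03) or, after quantile normalization, fell by 0.21. Rpl7 differed in direction from these: 2 of its 3 probe sets fell, by 0.38 and 0.21, and the brightest did not pass (-0.10, limma adjusted p = 0.090). Rpl39 fell by 0.26 (limma adjusted p = 0.035), a call lost without any 1 of 4 arrays, at an adjusted p of up to 0.080.

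The tissue-restricted like forms gave little signal. Rpl3l, the striated muscle form of Rpl3, was at 4.46 to 4.55 in CD24+CD29+ arrays, against 4.48 to 4.68 in CD24-CD29- arrays. Rpl39l, the male germ cell form of Rpl39, was at 5.62 to 5.68 in CD24+CD29+ arrays, against 5.62 to 5.75 in CD24-CD29- arrays. Both lay in the dimmest 40% of probe sets, below 5.81, and neither passed (95% intervals -0.23 to 0.07 and -0.15 to 0.10). Rps4l did not pass either (-0.04, 95% interval -0.21 to 0.13), but fell by 0.20 after quantile normalization.

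**Figure D2:**
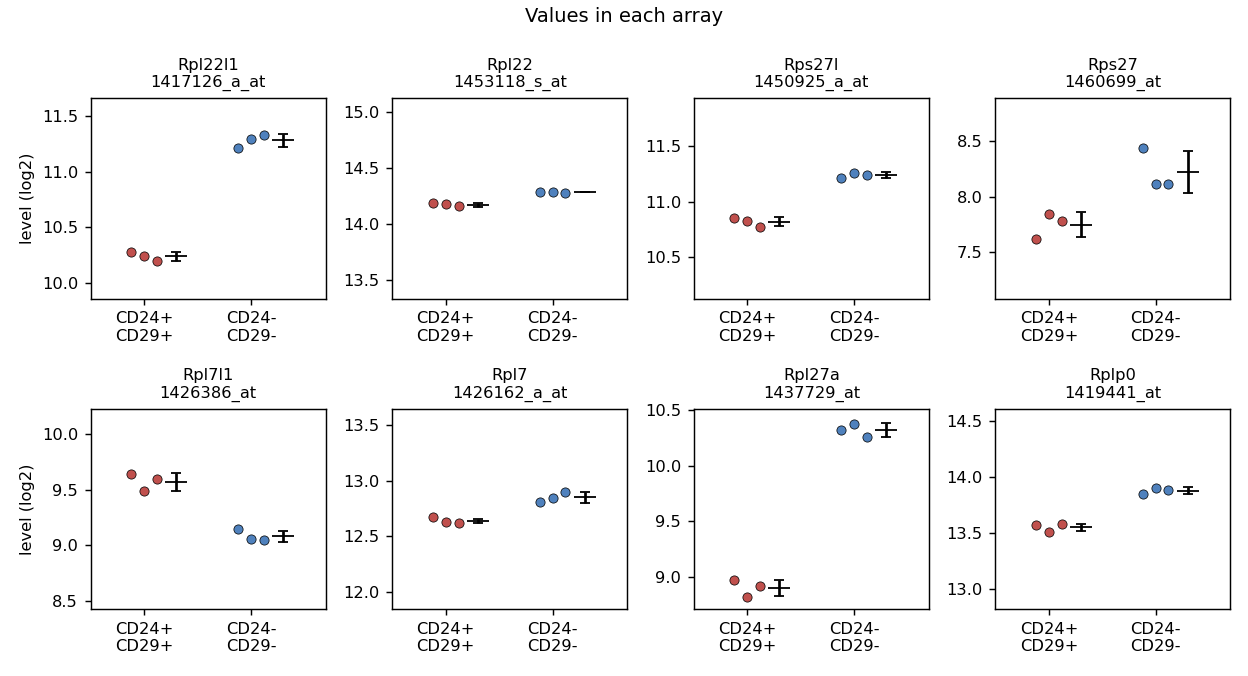
Log2 level in each array (points) and the group mean ± SD (bar, n = 3) for 8 probe sets, each panel spanning the same range of log2 units, CD24+CD29+ left and CD24-CD29- right. Rpl22l1, Rps27l, Rps27, Rpl27a, Rpl7, Rplp0 and, by only 0.11, Rpl22 are lower in every CD24+CD29+ array, and Rpl7l1 is higher in every one. After scaling to the poly-A controls only Rpl27a is lower.

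Of the 49 genes, 24 were read by more than 1 probe set, and the probe sets of a gene often differed, by a median range of 0.36. Calls in both directions occurred in 5 of the 24 (20.8%), against 1954 of 9010 genes with several probe sets in all (21.7%). Another 13 had calls only of lower level and 1, Rpl7l1, only of higher level, and 5 had no call. On 3 genes, Rps27l, Rpl27a and Rps6, every probe set fell. Unlike calls in both directions, these splits were not counted among all 9010 genes. They have no background here and are only a description. Probe sets whose identifier ends in _x_at, which can bind related sequences, numbered 40, of which 22 fell and 2 rose (median -0.15). Of all 2441 such probe sets 43.7% fell and 18.9% rose (median -0.11). Of the other 65, 24 fell (36.9%) and 11 rose (16.9%), with a median of -0.07, so without the _x_at probe sets the share that fell was close to the 34.8% of all probe sets, while the share that rose was still below 29.2%. Ribosomal protein genes have many processed pseudogenes, and the part of cross-binding in these values was not tested.

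The 5 genes with both directions were Rps9, Rpl41, Rps24, Rps10 and Rpl27. For Rps9, a small-subunit protein on the mRNA entry side, 1 probe set stood at 8.94, 8.80 and 8.91 in CD24+CD29+ arrays, against 9.58, 9.66 and 9.66 in CD24-CD29- arrays (1434624_x_at, -0.75, SE 0.06, limma adjusted p = 9.7e-06). Another was at 8.30, 8.29 and 8.29 in CD24+CD29+ arrays, against 7.79, 7.84 and 7.73 in CD24-CD29- arrays (1426958_at, 0.51, SE 0.05, limma adjusted p = 4.4e-05). These are opposite and non-overlapping readings of 1 gene, and another probe set, at -0.12, did not pass (limma adjusted p = 0.076, or 0.049 in the fit with 1 probe set a gene). No direction can be given for Rps9 from these arrays.

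Rpl41, which encodes the shortest ribosomal protein, rose on 2 probe sets, by 0.54 and 0.24, and fell on 2, by 0.54 and 0.29, and the smaller rise was lost after quantile normalization (0.04). The larger rise had 11.36, 11.34 and 11.41 in CD24+CD29+ arrays, against 10.81, 10.84 and 10.82 in CD24-CD29- arrays (1422623_x_at, SE 0.05, limma adjusted p = 2.4e-05). Rps24 fell on 4 of 6 probe sets, by 0.23 to 0.48, and rose on 1, by 0.39 (limma adjusted p = 0.0036, or 0.058 after cyclic loess), and 1 of the falls was lost after quantile normalization (-0.09). Rpl27 fell by 0.51 and 0.40 on 2 probe sets and rose by 0.14 on the other, a call lost without any 1 of 4 arrays (adjusted p up to 0.085) and lost after quantile normalization (0.04). Rps10, which is marked with ubiquitin at stalled ribosomes in human cells, rose by 0.32 and 0.14 and fell by 0.21 and 0.13, and the 2 smallest of these calls were lost without 1 array for 5 or all 6 of the arrays (adjusted p up to 0.090 and 0.12).

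**Figure D3:**
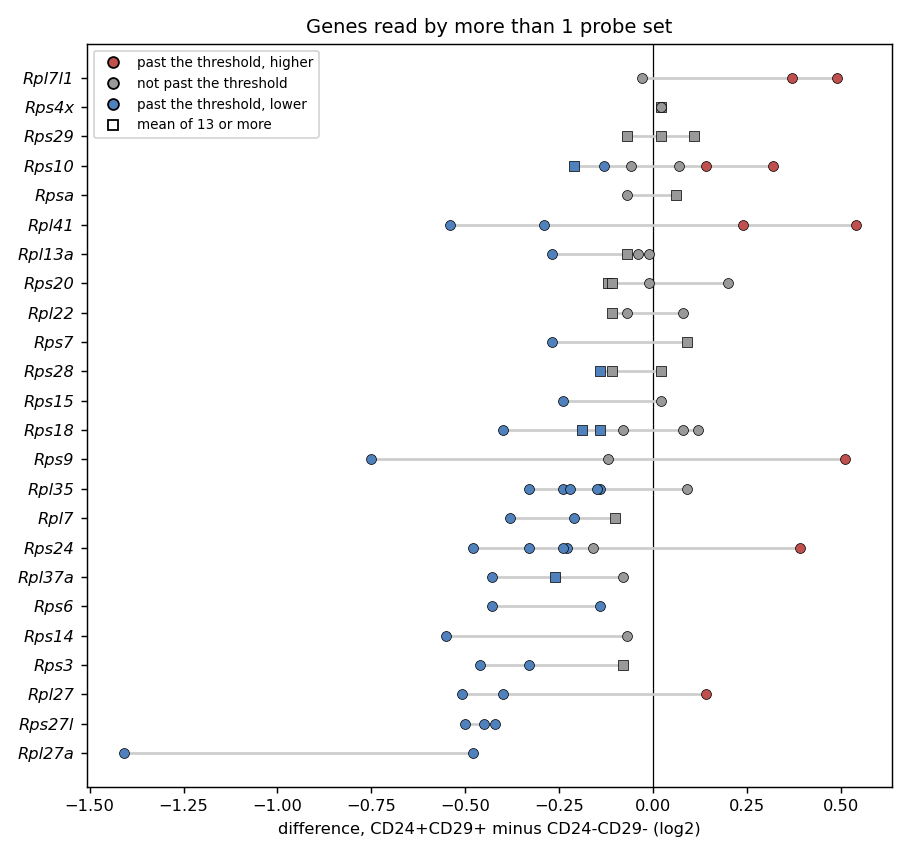
Log2 difference (CD24+CD29+ minus CD24-CD29-) of every probe set of the 24 genes read by more than 1, a row per gene, squares marking means of 13 or more and colours the limma call on the deposited scale. Rps27l, Rpl27a and Rps6 fall on every probe set and Rps9 and Rpl41 lie on both sides of 0; after scaling to the poly-A controls all points but 1, of Rpl27a, lie above 0.

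With 1 probe set for each gene, the one with the highest mean that does not end in _x_at where there was a choice, 21 of 49 genes fell (42.9%) and 7 rose (14.3%), while 21 did not pass, and the median was -0.08. Of all 18193 genes 36.5% fell and 34.4% rose. The 7 that rose were Rpl12, Rpl27, Rpl6, Rpl7a, Rpl7l1, Rps24 and Rps26, of which Rpl27 and Rps24 have other probe sets that fell. Of the 21 that fell, Rpl41, Rps10 and Rps9 have other probe sets that rose. The falls also count Rps9, Rpl22 and Rps28, whose probe sets passed in this fit (limma adjusted p = 0.049, 0.028 and 0.031) but not in the main fit of all probe sets. The share that fell was thus near that of all genes, and the share that rose was smaller. Among all 3773 genes between the quartiles of these genes' levels, 26.6% fell and 52.8% rose. Of the 18 genes with a run of at least 8 pyrimidines at a start, 10 fell and 3 rose (median -0.13), and of the 25 with an entry but no such run, 10 fell and 4 rose (median -0.08). After scaling to the poly-A controls 48 of the 49 genes were higher, as were 98.6% of all genes. The 110 probe sets with several symbols, an alternative added after the data were seen, gave 48 falls and 13 rises with a median of -0.09, close to the 46 and 13 of the single-symbol ones.

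Genes of ribosome assembly were mostly higher in CD24+CD29+ cells on the deposited scale. After scaling to the poly-A controls all 88 were, against 98.6% of all genes. Of 88 measured genes of ribosome assembly 63 rose (71.6%), 11 fell and 14 did not reach the threshold (median 0.33), and all genes between the quartiles of their levels had 58.6% rising and a median of 0.22. The largest rise was that of Pno1, a small-subunit assembly factor, at 12.22 ± 0.02 in CD24+CD29+ arrays, against 11.11 ± 0.04 in CD24-CD29- arrays (SD, n = 3; 1.11, SE 0.04, limma adjusted p = 8.0e-07). The largest fall was that of the nucleolar gene Nol6, at 7.13 ± 0.12 in CD24+CD29+ arrays, against 7.79 ± 0.11 in CD24-CD29- arrays (SD, n = 3; -0.65, limma adjusted p = 1.6e-04). After quantile normalization or cyclic loess the list's median was 0.17, with 52 or 50 rises.

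RNA polymerase I transcribes the large ribosomal RNA precursor. Of 16 genes of its subunits and factors 11 rose, 2 fell and 3 did not pass (median 0.36), where all genes of like level had 58.8% rising and a median of 0.23, and the list's median was 0.18 after quantile normalization and 0.17 after cyclic loess. Polr1a, its largest subunit, rose by 0.38 (limma adjusted p = 1.1e-04), while Polr1b, the next in size, did not pass at 0.08. Polr1e had the largest rise, 0.97, and Taf1a, of the promoter-binding factor, the largest fall, -0.45. Both lists were thus tilted toward higher levels, as were genes at their brightness in general, and the ribosomal protein genes were not.

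Of 21 other mRNAs known to carry a TOP tract 6 rose (28.6%), 6 fell (28.6%) and 9 did not reach the threshold (median -0.01). Of the 802 genes of like level 47.0% rose and 32.4% fell (median 0.08). Eef2, which moves the ribosome along the mRNA and was picked after its value was seen, rose by 1.13, while Btf3, which binds nascent chains, fell by 0.98. The largest rise was that of the intermediate filament gene Vim, by 1.15, whose main known role is not in translation. Fau, which encodes a ribosomal protein fused to a ubiquitin-like one, did not pass (-0.06), and it was the only one of the ribosomal proteins under another name with a single-symbol probe set. Of 23 genes that control ribosome synthesis 12 rose, 4 fell and 7 did not pass (median 0.17), near the 57.7% rising and 21.8% falling among all genes of like level. Mtor rose by 0.81 (1.75-fold, limma adjusted p = 3.5e-06) and Mxd1, a Myc antagonist, fell by 0.97.

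**Figure D4:**
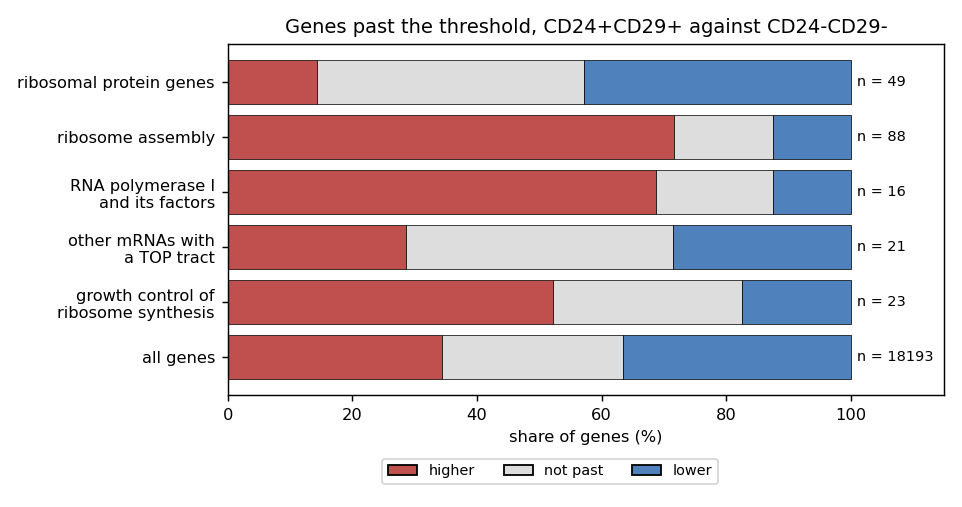
Share of genes (%) past the threshold as higher, not past, or lower in CD24+CD29+ against CD24-CD29- cells on the deposited scale, for the ribosomal protein genes, 4 related lists and all 18193 genes, with n beside each bar. Ribosomal protein genes have 14.3% higher and 42.9% lower, ribosome assembly genes 71.6% higher; after scaling to the poly-A controls nearly all genes of every bar would count as higher.

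Other measures moved with the groups, and their part in the differences above was not tested. The control probe sets for the small-subunit ribosomal RNA were lower in CD24+CD29+ arrays, at 11.24 ± 0.03 against 11.72 ± 0.02 in CD24-CD29- arrays at the 5′ end and 11.71 ± 0.02 against 11.86 ± 0.01 at the 3′ end (SD, n = 3 each). That RNA has no poly-A tail, so these signals are no measure of ribosome number. The gap between the 3′ and 5′ control probe sets of beta-actin, a sign of RNA quality and of labelling, was 3.34 ± 0.03 in CD24+CD29+ arrays, against 4.37 ± 0.04 in CD24-CD29- arrays, while that of Gapdh was 5.85 ± 0.04 in CD24+CD29+ arrays, against 5.92 ± 0.10 in CD24-CD29- arrays. Epithelial markers were bright in both groups (6 genes, mean level 12.98 to 13.05 in CD24+CD29+ arrays, against 12.83 to 12.86 in CD24-CD29- arrays). Of these, the basal keratins Krt14 and Krt5 rose by 0.99 and 0.65, the luminal keratins Krt18 and Krt8 fell by 0.42 and 0.17, and Epcam and Cdh1 did not pass. All 7 fibroblast markers rose (9.16 to 9.22 in CD24+CD29+ arrays, against 7.99 to 8.07 in CD24-CD29- arrays), led by Col1a2 at 2.02. Their median difference was 1.15, where the 3765 genes of like level had 56.2% rising and a median of 0.22. Markers of leukocytes, endothelial cells, adipocytes and erythroid cells (6, 4, 3 and 1 genes) had mean levels of 5.17 to 5.54 in CD24+CD29+ arrays, against 5.02 to 5.79 in CD24-CD29- arrays. In the dimmest 40% of probe sets, below 5.81, lay 4 of the leukocyte, 3 of the endothelial, 2 of the adipocyte and the 1 erythroid marker. Above it, Fabp4 rose by 0.88 (6.72 in CD24+CD29+ arrays, against 5.84 in CD24-CD29- arrays), and the leukocyte markers Cd3e and Adgre1 fell by 0.44 and 0.35.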

How the data were processed

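Total RNA of sorted cells was extracted with Trizol, labelled with biotin and hybridised to Affymetrix Mouse430_2 arrays, per the labels' protocols. The values are log2 expression per probe set as the authors deposited them, made with RMA and Partek, per the submitters' processing notes; the sources used here give no version, setting or order. The table held 45101 probe sets, of which 64 controls were left out of the fits. Gene symbols came from the platform's annotation, which can be old; all 105 ribosomal protein probe sets had a matching RefSeq symbol. The comparison used lmFit and eBayes of limma 3.58.1 (R 4.3.3), 2-sided and without block or trend, fitted on all probe sets or all genes, with Benjamini-Hochberg adjustment over all of them, and tested on simulated data. Precision is limited by having 3 arrays a group: the median SE over the ribosomal protein probe sets was 0.05. The numbers in the titles did not pair the arrays (correlations of the deviations of same-numbered arrays 0.199, -0.038 and 0.051), so no block was used. Named probe sets were the 8 largest rises, the 8 largest falls, the 5 with the highest mean, like forms and partners, genes fixed by name, and genes called in both directions; Rps19, Rpl7a, Eef2, Krt5, Krt8, Adgre1 and the second probe sets of Rps14, Rps6 and Rpl27a were named after their values were seen. Of the related lists, the largest rise and fall were named, with Polr1a and Polr1b. Members, lists and tests were chosen with earlier results of these data known. Alternatives were other normalizations, filters, a trend, a block and leaving out each array.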

Additional observations from a re-analysis of the deposited data

How the results depend on the processing

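The counts and medians of the ribosomal protein probe sets and genes kept their direction, and their size within 1.5 times for counts or within the spread between arrays for medians, under limma with a trend, without the dimmest 40% of probe sets, and without each array in turn, with these exceptions under other settings. Relative to all probe sets, the median did move without the dimmest 40%, to -0.18 (-0.14 near the top and -0.21 below it). With the replicate number as a block 13 probe sets rose and 40 fell (median -0.10), where 29.2% and 35.1% of all probe sets did. Of 49 genes 7 rose and 18 fell, where 34.1% and 36.6% of all genes did. The block ended 3 calls of named probe sets, all with a limma adjusted p of 0.051 to 0.066, and changed no other call of these. Without _x_at probe sets 24 of 65 fell (36.9%), close to the 34.8% of all probe sets. After median centring the medians were -0.05 for all and -0.02 near the top. Of 49 genes 13 then fell and 8 rose, where 30.4% and 38.1% of all genes did, so both shares were below the background. After quantile normalization the median near the top was -0.02 and 12 of 49 genes rose, where 30.6% of all genes did. After cyclic loess the median near the top was 0.05. The causes were not tested. Scaling to the poly-A controls shifts all probe sets of an array alike: 104 rose and 1 fell (48 and 1 genes), with medians of 1.12 for all, 1.15 near the top and 1.09 below it, or -0.05, -0.02 and -0.08 relative to all probe sets, as after median centring. Under it these calls turned positive: Rpl22l1 0.18, Rpl27 0.71 and 0.82, Rpl37 0.58, Rpl39 0.96, Rpl41 0.68 and 0.93, Rpl7 1.01 and 0.84, Rplp0 0.90, Rps10 1.01 and 1.09, Rps14 0.67, Rps24 0.89, 0.99, 0.98 and 0.74, Rps25 0.71, Rps27 0.75, Rps27l 0.77, 0.72 and 0.80, Rps6 1.09 and Rps9 0.47. After cyclic loess the small rise of Rps10 (1416719_a_at) was -0.01. Of the 57 named probe sets, 43 stayed on their side of the threshold after cyclic loess and 45 after quantile normalization, and among those not called some changed sign, such as Rpl39l (0.12 under both). Quantile normalization also brought 8 named probe sets past the threshold, among them Rpl11, Rplp2 and Rpsa, and ended 4 calls. Leaving out 1 array gave 10 to 13 rises and 37 to 44 falls, with medians of -0.12 to -0.10. Of all probe sets 26.6% to 28.1% then rose and 30.5% to 33.2% fell. Among the 49 genes 16 to 19 fell, near the 32.7% to 34.9% of all genes. The alternatives for the related lists, the several-symbol probe sets and the dimmest ribosomal protein probe sets were chosen after seeing the data. Values near the top of the range and 3 arrays a group limit what could be seen.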
